A study of Mus musculus with 6 samples.

Results

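The 35 genes described here encode the core autophagy machinery and the receptors that hand cargo to it. They were taken by name from the deposited gene tables, with a mean of at least 1 TPM (a length-corrected share of the library, scaled to a total of 1000000) over the 6 libraries. All 35 reached that level, among 11551 of 36333 listed genes that did. The libraries were made from polyadenylated RNA of bone marrow derived macrophages of C57BL/6 mice. The cells had been grown in 10 ng/mL macrophage colony-stimulating factor for 7 days and replated at 250000 cells per well. In 3 libraries the cells had received 100 µM stearic acid, a saturated fatty acid, for 24 h, and in the other 3 an equal volume of the ethanol vehicle. The labels give no gene modification in either group. They number the replicates 1 to 3 and do not say whether these were separate animals or cultures, so a p-value here reflects no more than the variation among these libraries, part of which may be technical.

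In autophagy a double membrane grows around cytoplasmic material, closes into an autophagosome and fuses with a lysosome. The ULK1 kinase complex starts the process, a class III PI3 kinase complex built on Beclin 1 marks the membrane, and a pair of ubiquitin-like conjugation systems attach LC3 and GABARAP proteins to it. Cargo receptors bind both the cargo and the LC3 or GABARAP proteins, and are themselves degraded with the cargo, so a transcript level says nothing of the flux through the pathway. Sqstm1 encodes p62, a receptor for ubiquitinated proteins that also binds KEAP1, the inhibitor of the oxidative-stress factor NRF2. In macrophages the pathway removes microbes, damaged mitochondria and lipid droplets.

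Sqstm1 had the largest change of the 35. With stearic acid its transcript was 2.64-fold higher by group means, and 3 other members rose by 1.31-fold or less, the LC3-family genes Gabarapl1 and Gabarap and the membrane protein gene Vmp1. Ulk2, an initiation kinase, was the single member that fell, to 0.675 of its vehicle level. The other 30 members did not pass, among them the 5 genes of the Beclin 1 lipid kinase complexes and the 8 genes of the conjugation systems. In all, 5 of 35 members (14.3%) were called by limma at an adjusted p under 0.05, against 24.7% of all 11551 genes tested. Called higher were 4 members against 12.8% of all genes, and called lower was 1 against 11.9%. The share of members called was below the share among all genes, and an unadjusted p under 0.05 was found for 7 of the 35 members, against 40.4% of all genes.

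The median log2 fold change of the members, on the log2(TPM + 1) scale used for all fold changes here, was -0.02, and that of all genes tested was -0.03. The median size of the change regardless of sign was 0.13 for members and 0.17 for all genes. Without Sqstm1 the remaining 34 members ranged from -0.57 to 0.39. TPM is a share of each library, and in bulk samples fewer cells of a type and less RNA per cell cannot be told apart.

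**Figure D1:**
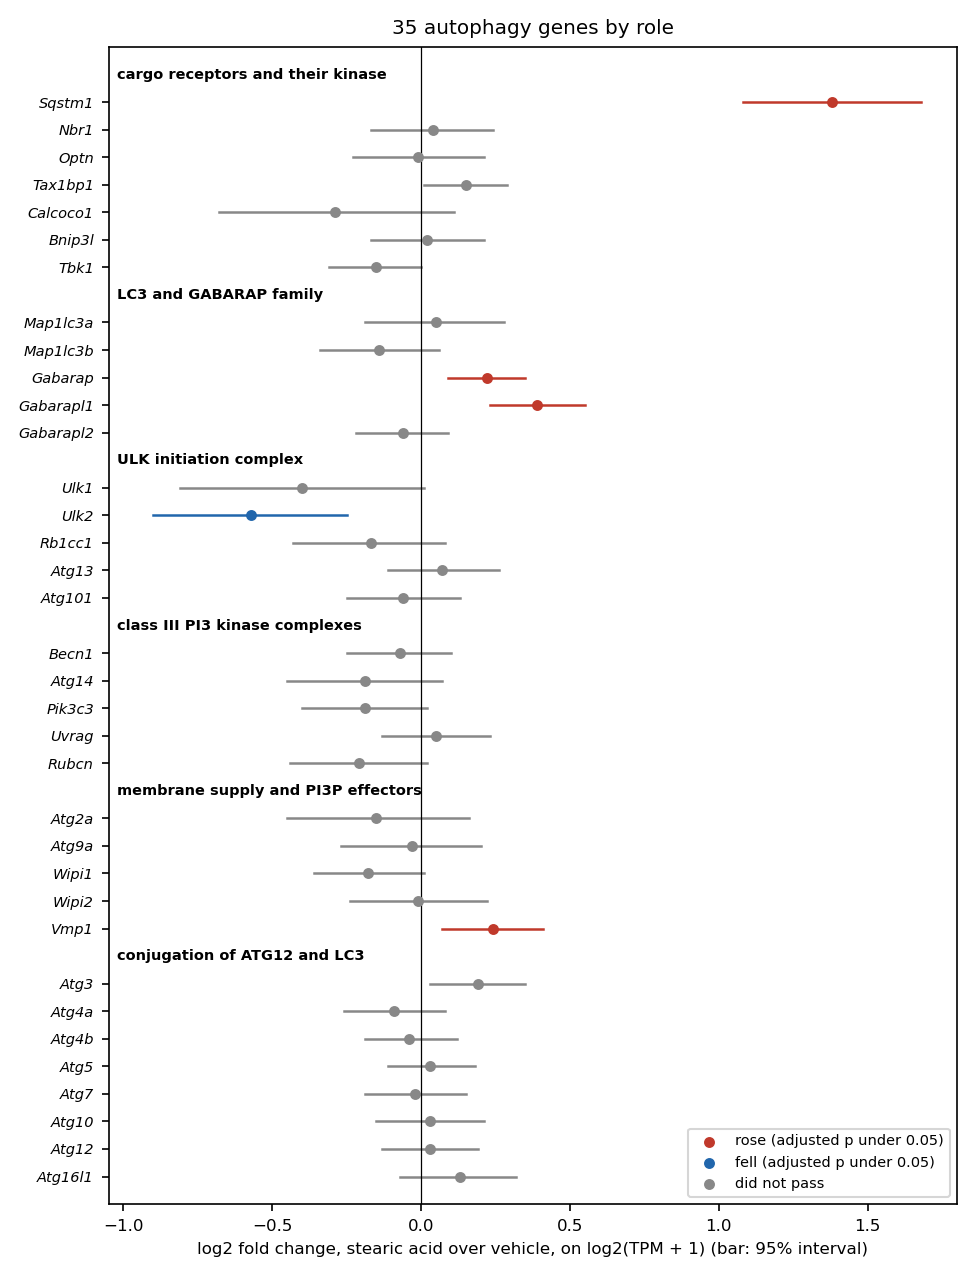
Log2 fold change of each of the 35 genes, stearic acid over vehicle (3 libraries each), on the log2(TPM + 1) scale, with its 95% interval from limma; red marks genes that rose, blue the gene that fell and grey those that did not pass. Sqstm1 lies at 1.38, apart from the other 34, which lie between -0.57 and 0.39.

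The stretches before the start sites of the largest riser and of 2 other risers are shown as examples. Gabarap, which also rose, is not shown. Each run is the 250 bases before the RefSeq start site, 5′ to 3′ on the gene's strand, GRCm38.p6. Capitals, found in the Vmp1 run alone, mark a match to the antioxidant response element core described in the next paragraph.
Sqstm1, chr11:50210821-50211070, minus strand: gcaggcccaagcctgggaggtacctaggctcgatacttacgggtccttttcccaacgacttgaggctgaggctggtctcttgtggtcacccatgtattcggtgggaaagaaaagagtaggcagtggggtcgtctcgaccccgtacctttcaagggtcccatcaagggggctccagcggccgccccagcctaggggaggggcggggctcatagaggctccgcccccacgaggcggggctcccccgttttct
Gabarapl1, chr6:129532942-129533191, plus strand: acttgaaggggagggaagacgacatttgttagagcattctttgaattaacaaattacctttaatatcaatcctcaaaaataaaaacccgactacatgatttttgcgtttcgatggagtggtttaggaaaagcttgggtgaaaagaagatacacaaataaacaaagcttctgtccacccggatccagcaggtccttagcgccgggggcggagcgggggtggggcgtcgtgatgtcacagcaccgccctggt
Vmp1, chr11:86683837-86684086, minus strand: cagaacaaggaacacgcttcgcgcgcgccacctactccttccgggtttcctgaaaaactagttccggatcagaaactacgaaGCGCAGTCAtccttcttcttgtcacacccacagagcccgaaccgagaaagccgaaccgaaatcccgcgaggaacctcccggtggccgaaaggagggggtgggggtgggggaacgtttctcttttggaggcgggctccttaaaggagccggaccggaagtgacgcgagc

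The search covered 3 motifs on both strands of the 300-base RefSeq windows that run to 50 bases past the start site. They were the antioxidant response element core bound by NRF2 (TGACNNNGC), the core of the CLEAR element bound by TFEB (TCACGTG), and the core of the element bound by CHOP and ATF4 dimers (TGATGNAA). RefSeq windows matched 28 of the 35 members. The first motif was found in 7 of their 34 windows, those of Atg13, Map1lc3b, Tax1bp1 and Ulk2 and 3 of Vmp1, and in 12.4% of all 32851 windows. The second was found in 5 of the 34, those of Atg14, Atg3, Atg7, Rubcn and Tbk1, and in 3.77% of all windows, and the third in none of the member windows and in 3.97% of all. The Sqstm1 and Gabarapl1 windows held none of the 3, and bases outside the windows were not searched for any gene. Of the genes whose window held the first motif, Vmp1 rose, Ulk2 fell and 3 did not pass. None of the 5 genes with the second motif passed. A match is a description of letters, and factor binding was not measured in these samples.

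Among the cargo receptors, the rise was in Sqstm1 (NCBI gene 18412, chromosome 11, 50200152 to 50210820, GRCm38). It stood at 652.9, 588.9 and 659.3 TPM in vehicle replicates 1 to 3 and at 1351, 2048 and 1614 TPM in stearic acid replicates 1 to 3. Every stearic acid library lay above every vehicle library, with replicate 2 the highest and replicate 1 the lowest of the 3. The means were 634 ± 38.9 and 1671 ± 352 TPM (SD, n = 3 per group), a log2 fold change of 1.38 (SE 0.13, 95% interval 1.08 to 1.68, limma adjusted p = 0.0006). It ranked 54 by p among the genes tested, and its fold change lay at the 99.6 percentile. The call held whichever library was left out (log2 1.22 to 1.52 over 6 such fits). In GENCODE the transcripts of Mrnip share 583 bases with those of Sqstm1, so some Sqstm1 reads may be shared. No gene of the name Mrnip was among the listed genes.

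The other 5 receptors did not pass. Tax1bp1, a receptor for ubiquitinated cargo, was at 106.4, 107.0 and 113.5 TPM in vehicle and at 120.5, 120.2 and 121.5 TPM with stearic acid. Its groups did not overlap, yet it did not pass (log2 0.15, 95% interval 0.01 to 0.29, limma adjusted p = 0.11). It passed after rescaling by median-of-ratios and with RPKM values. Nbr1, a receptor related to p62, was at 79.7, 72.0 and 85.9 TPM against 89.1, 74.9 and 79.7 TPM. Its groups overlapped (log2 0.04, 95% interval -0.17 to 0.24, limma adjusted p = 0.79).

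Optn, which encodes optineurin, a receptor for microbes and mitochondria, was at 19.5, 17.4 and 21.1 TPM in vehicle and at 21.3, 18 and 18.3 TPM with stearic acid. Bnip3l, whose product NIX sits on mitochondria and recruits LC3, was at 79.9, 74.8 and 81.1 TPM against 88.8, 74.0 and 76.8 TPM. The groups overlapped for both genes, with 95% intervals of the log2 fold change of -0.23 to 0.21 for Optn and -0.17 to 0.21 for Bnip3l. GENCODE lists a copy, Bnip3l-ps, that matches Bnip3l at 99.2% identity over 663 bases, so some Bnip3l reads may be shared. Calcoco1, a receptor linked to the endoplasmic reticulum and Golgi, was at 50.3, 42.4 and 55.3 TPM in vehicle. With stearic acid it was at 53.1, 31.2 and 38.6 TPM, and replicates 2 and 3 lay below all vehicle libraries while replicate 1 lay among them. Its log2 fold change was -0.29 (95% interval -0.68 to 0.11, limma adjusted p = 0.24). It was -0.49 without stearic acid replicate 1, where it passed (limma adjusted p = 0.0029), and -0.11 without replicate 2.

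Tbk1, the kinase that phosphorylates optineurin and p62 and also acts in interferon signalling, was at 79.3, 74.3 and 83.1 TPM in vehicle. It was lower in every stearic acid library, at 72.4, 68.4 and 71.8 TPM, a difference short of the threshold (log2 -0.15, 95% interval -0.31 to 0.00, limma adjusted p = 0.13). Over the members, the groups did not overlap in 8 of 35 genes, against 44.6% of all genes tested. They were higher with stearic acid in 6 (22.8% of all genes) and lower in 2 (21.7% of all genes). These 8 were the 5 called members with Tax1bp1 and Atg3 (higher) and Tbk1 (lower).

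Sqstm1 made up 66.0%, 65.3% and 64.9% of the summed TPM of the 6 receptors in vehicle and 78.4%, 86.5% and 82.8% with stearic acid. The summed TPM of the other 5 receptors and Tbk1 was 387.8 to 440.0 in vehicle and 386.7 to 445.1 with stearic acid, and these ranges overlapped. Set against the summed LC3 and GABARAP transcripts, Sqstm1 stood at 0.521, 0.477 and 0.526 in vehicle and at 0.968, 1.5 and 1.19 with stearic acid.

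**Figure D2:**
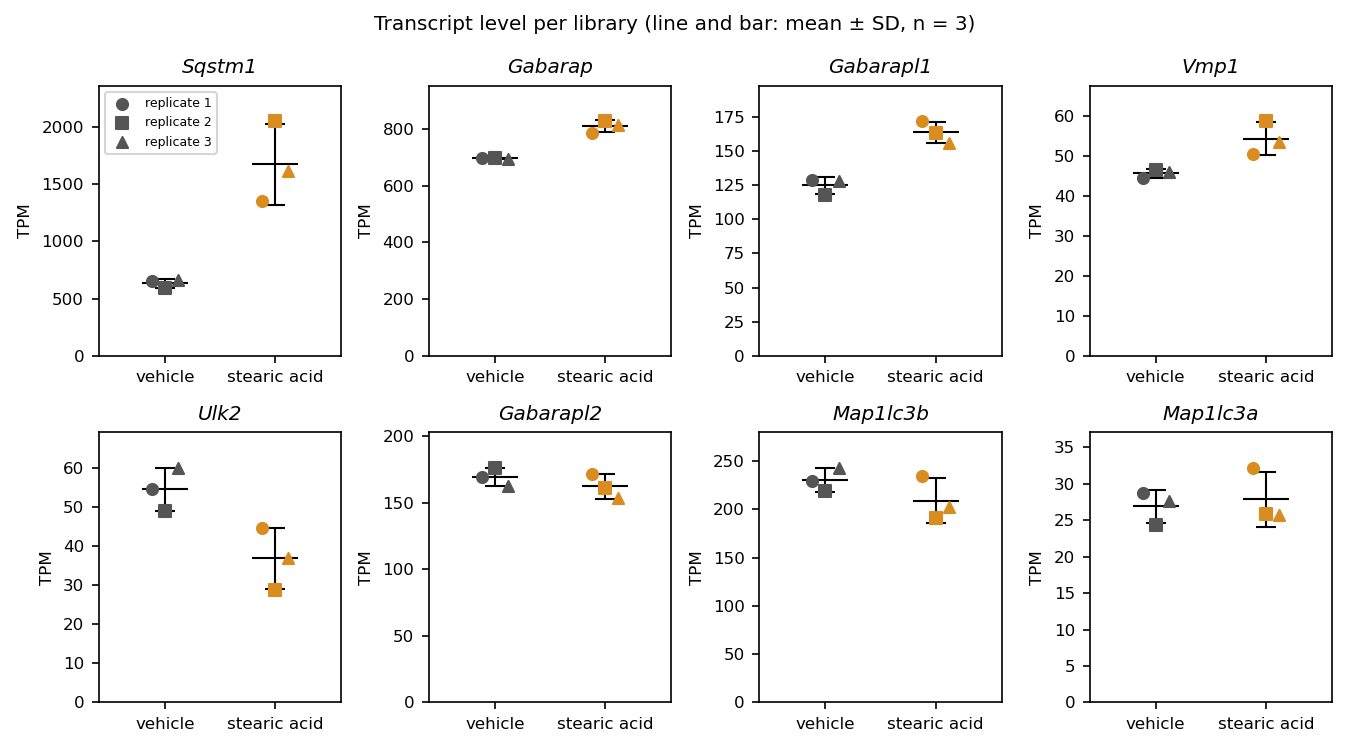
TPM of 8 genes in each library (circle, square and triangle for replicates 1, 2 and 3), with mean ± SD for the 3 libraries of each group; each panel has its own axis from 0. Sqstm1, Gabarap, Gabarapl1 and Vmp1 lie higher in every stearic acid library, Ulk2 lies lower, and the groups overlap in Gabarapl2, Map1lc3b and Map1lc3a.

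The LC3 family, whose members are joined to the autophagosome membrane and dock the receptors, had 2 risers among 5 genes. Over all genes tested 12.8% rose. Both risers were of the GABARAP branch, whose remaining gene, Gabarapl2, did not pass. Gabarapl1 (gene 57436, chromosome 6, 129533192 to 129542331) was at 128.5, 117.4 and 128.1 TPM in vehicle and at 171.6, 162.7 and 156.0 TPM with stearic acid. No vehicle library reached a stearic acid library, and here replicate 1 was the highest of the treated libraries. It rose from 124.6 ± 6.27 to 163.4 ± 7.86 TPM (SD, n = 3), a log2 fold change of 0.39 (SE 0.07, limma adjusted p = 0.0082), and passed whichever library was left out. An RNA gene on the opposite strand, 1700101I11Rik, overlaps it by 93 bases in RefSeq and was at up to 0.419 TPM in any library.

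Gabarap (gene 56486, chromosome 11, 69991370 to 69994949) was the most abundant member in vehicle. It was at 697.0, 697.3 and 692.2 TPM there and at 784.7, 826.4 and 814.8 TPM with stearic acid, a narrow spread within each group and no overlap between them. The rise was small, with a log2 fold change of 0.22 (SE 0.06, limma adjusted p = 0.028). The call was lost when any library other than stearic acid replicate 1 was left out (limma adjusted p up to 0.13).

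Gabarapl2, also of the GABARAP branch, was at 169.7, 176.5 and 162.6 TPM against 172.0, 161.4 and 153.9 TPM, and its groups overlapped (log2 -0.06, 95% interval -0.22 to 0.09). GENCODE lists 3 processed pseudogenes that match its transcript at 96.6% to 99.4% identity over 349 to 352 bases, so some of its reads may be shared. Map1lc3b, which encodes LC3B, the usual marker of autophagosomes, was at 229.2, 218.7 and 243.3 TPM in vehicle. With stearic acid it was at 234.8, 190.7 and 202.3 TPM, with replicate 1 inside the vehicle range and replicates 2 and 3 below it (log2 -0.14, 95% interval -0.34 to 0.06, limma adjusted p = 0.25). Its log2 fold change was -0.23 without stearic acid replicate 1, where it passed (limma adjusted p = 0.026), and -0.08 without replicate 2. Map1lc3a was the lowest of the family, at 28.7, 24.4 and 27.6 TPM against 32.2, 25.8 and 25.7 TPM.

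Summed over the 5 genes, the family came to 1253, 1234 and 1254 TPM in vehicle and to 1395, 1367 and 1353 TPM with stearic acid. Within that sum the share of Map1lc3b was 18.3%, 17.7% and 19.4% in vehicle and 16.8%, 14.0% and 15.0% with stearic acid. The ratio of Gabarapl1 to Map1lc3b was 0.561, 0.537 and 0.526 in vehicle and 0.731, 0.853 and 0.771 with stearic acid. The ranges of this share and of this ratio did not overlap between the groups. The same held for the share of Gabarapl2, at 13.5%, 14.3% and 13.0% in vehicle and 12.3%, 11.8% and 11.4% with stearic acid. The share of Gabarap overlapped, at 55.6%, 56.5% and 55.2% against 56.2%, 60.5% and 60.2%. Shares of one sum depend on each other, and these fall in unchanged genes when Gabarap and Gabarapl1 rise. The TPM of Map1lc3b and of Gabarapl2 overlapped between the groups, so the lower shares are not separate results.

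Of the 5 initiation genes 1 fell and 4 did not pass, where 11.9% of all genes tested fell. Their median log2 fold change was -0.17. Ulk2 (gene 29869, chromosome 11, 61775598 to 61855334) was at 54.6, 48.9 and 60.0 TPM in vehicle and at 44.5, 28.8 and 37.0 TPM with stearic acid. All treated libraries lay below all vehicle libraries, and stearic acid replicate 1 was the closest to them. The means were 54.5 ± 5.55 and 36.8 ± 7.82 TPM (SD, n = 3), a log2 fold change of -0.57 (SE 0.14, limma adjusted p = 0.024). The call was lost when any vehicle library or stearic acid replicate 3 was left out (limma adjusted p up to 0.10).

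Ulk1, the kinase most often studied in this complex, was at 37.3, 30.7 and 39.4 TPM in vehicle and at 36.2, 20.2 and 26.1 TPM with stearic acid. Replicates 2 and 3 lay below the vehicle range and replicate 1 inside it, and the difference missed the threshold (log2 -0.40, 95% interval -0.81 to 0.01, limma adjusted p = 0.14). Without stearic acid replicate 1 it was -0.61 and passed (limma adjusted p = 0.0008), and without replicate 2 it was -0.21. Rb1cc1, which encodes the scaffold FIP200, showed the same order at a lower level, with 18.5, 17.4 and 19.3 TPM against 19.0, 13.8 and 16.1 TPM. Its log2 fold change of -0.17 moved to -0.29 without stearic acid replicate 1, where it passed (limma adjusted p = 0.026), and to -0.07 without replicate 2. The adaptor genes Atg13 and Atg101 had 95% intervals of -0.11 to 0.26 and -0.25 to 0.13, and their groups overlapped. Summed TPM of the 5 genes was 177.3 to 206.5 in vehicle and 144.0 to 192.6 with stearic acid.

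None of the 5 genes of the lipid kinase complexes passed in limma, none had an unadjusted p under 0.05, and in each the groups overlapped. Without stearic acid replicate 1, Atg14, Pik3c3 and Rubcn passed as lower, in a fit where 8 members did so. Their log2 fold changes without stearic acid replicate 2 were -0.11, -0.10 and -0.16, and they did not pass. These falls are not read as particular to the complexes. Becn1, which encodes Beclin 1, was at 123.4, 112.4 and 129.4 TPM against 122.1, 107.5 and 117.1 TPM (log2 -0.07, 95% interval -0.25 to 0.10). Its gene span, introns included, overlaps that of its neighbour Cntd1 by 444 bases in RefSeq. In GENCODE a Cntd1 transcript matches that of Becn1 over 1299 bases, so some Becn1 reads may be shared. Pik3c3, the catalytic subunit VPS34, Atg14, which targets the complex to the growing membrane, and Rubcn, an inhibitor of the UVRAG complex, had log2 fold changes of -0.19, -0.19 and -0.21. Their 95% intervals reached from -0.45 at the lowest to 0.07 at the highest. Uvrag, a Beclin 1 partner in endosomal traffic, was at 45.6 ± 3.07 TPM in vehicle and 47.3 ± 2.90 TPM with stearic acid. Parts of its transcript match several other genes at 95% identity or more, so its level is less certain.

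Among the 5 genes that bring membrane or bind the lipid mark, Vmp1 rose and 4 did not pass. Over all genes tested 12.8% rose. Vmp1 (gene 75909, chromosome 11, 86583858 to 86683836) encodes an endoplasmic reticulum protein that scrambles lipids and is needed for autophagosome formation. It was at 44.5, 46.7 and 46.0 TPM in vehicle and at 50.6, 58.8 and 53.7 TPM with stearic acid, without overlap. The log2 fold change of 0.24 (SE 0.07, limma adjusted p = 0.044) kept its call when stearic acid replicate 1 was left out and lost it when any of the other 5 libraries was (limma adjusted p up to 0.16). Median-of-ratios scaling, quantile normalization and a prior without trend also ended the call. So did dropping the filter on low values, which ended those of Gabarap and Ulk2 too. The locus also holds the microRNA gene Mir21a, listed at 0 TPM in these tables of polyadenylated RNA. Ptrh2, which starts within the Vmp1 window printed above on the opposite strand, was at 13.9 to 16.1 TPM in vehicle and 15.5 to 16.7 TPM with stearic acid and did not pass (log2 0.09, limma adjusted p = 0.43).

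Wipi1 and Wipi2, which read the lipid mark, Atg9a, the lipid scramblase of small seed vesicles, and Atg2a, a lipid transfer protein, had log2 fold changes of -0.18, -0.01, -0.03 and -0.15. Wipi1 was at 27.1, 24.1 and 26.3 TPM in vehicle and at 23.0, 20.9 and 24.3 TPM with stearic acid, so that stearic acid replicate 3 lay inside the vehicle range. Its 95% interval was -0.36 to 0.01. The groups of the other 3 overlapped as well. The GENCODE transcript Gm29253 matches Atg9a at 99.9% identity over 1073 bases, so some Atg9a reads may be shared.

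None of the 8 conjugation genes passed in limma, and 1 had an unadjusted p under 0.05, which 40.4% of all genes tested had. The log2 fold changes ran from -0.09 to 0.19, and the median size of the change was 0.03. Atg3, the enzyme that transfers LC3 to its lipid, came nearest. It was at 62.3, 61.5 and 63.0 TPM in vehicle and at 66.1, 75.1 and 72.8 TPM with stearic acid, without overlap (log2 0.19, 95% interval 0.03 to 0.35, limma adjusted p = 0.075). It passed with RPKM values and in the fit without stearic acid replicate 1. Atg16l1, which places the conjugation machinery on the membrane, was at 26.1, 24.4 and 29.1 TPM against 27.1, 31.0 and 28.9 TPM.

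Atg5 and Atg12, whose products are joined to each other, had 95% intervals of -0.11 to 0.18 and -0.13 to 0.19. Those of Atg7, the activating enzyme of both systems, and Atg10, which joins ATG12 to ATG5, were -0.19 to 0.15 and -0.15 to 0.21. For the proteases that trim LC3 and free it from the membrane, Atg4a and Atg4b, they were -0.26 to 0.08 and -0.19 to 0.12. The span of the Atg4a gene, introns included, overlaps that of its neighbour Psmd10 by 2867 bases in RefSeq. In GENCODE the copy Atg4a-ps matches it at 99.3% identity over 2115 bases, so the level of Atg4a is less certain. Atg10 was the lowest of all 35 members, at 6.77 to 7.65 TPM over the 6 libraries. Summed TPM of the 8 genes was 285.5 to 305.4 in vehicle and 303.9 to 307.1 with stearic acid.

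Within each group the same libraries tended to be high or low. Vehicle replicate 2 held the lowest vehicle value in 28 of 35 members, as it did in 68.6% of all genes tested, and vehicle replicate 3 held the highest in 26 members. Stearic acid replicate 1 held the highest treated value in 25 members and replicate 2 the lowest in 25. Shares over all genes were not taken for these counts or for that of vehicle replicate 3. Stearic acid replicate 1 lay nearest to the vehicle mean in 4 of the 5 called members. Stearic acid replicate 2 lay farthest in 4 of 5, with Gabarapl1 the exception in both. When stearic acid replicate 1 was left out, 5 members passed as higher and 8 as lower. The 7 added falls were Calcoco1, Map1lc3b, Ulk1, Rb1cc1, Atg14, Pik3c3 and Rubcn. Calls over all genes also varied widely with the library left out, as given in the closing section. The counts of this fit are therefore not read as particular to the members.

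**Figure D3:**
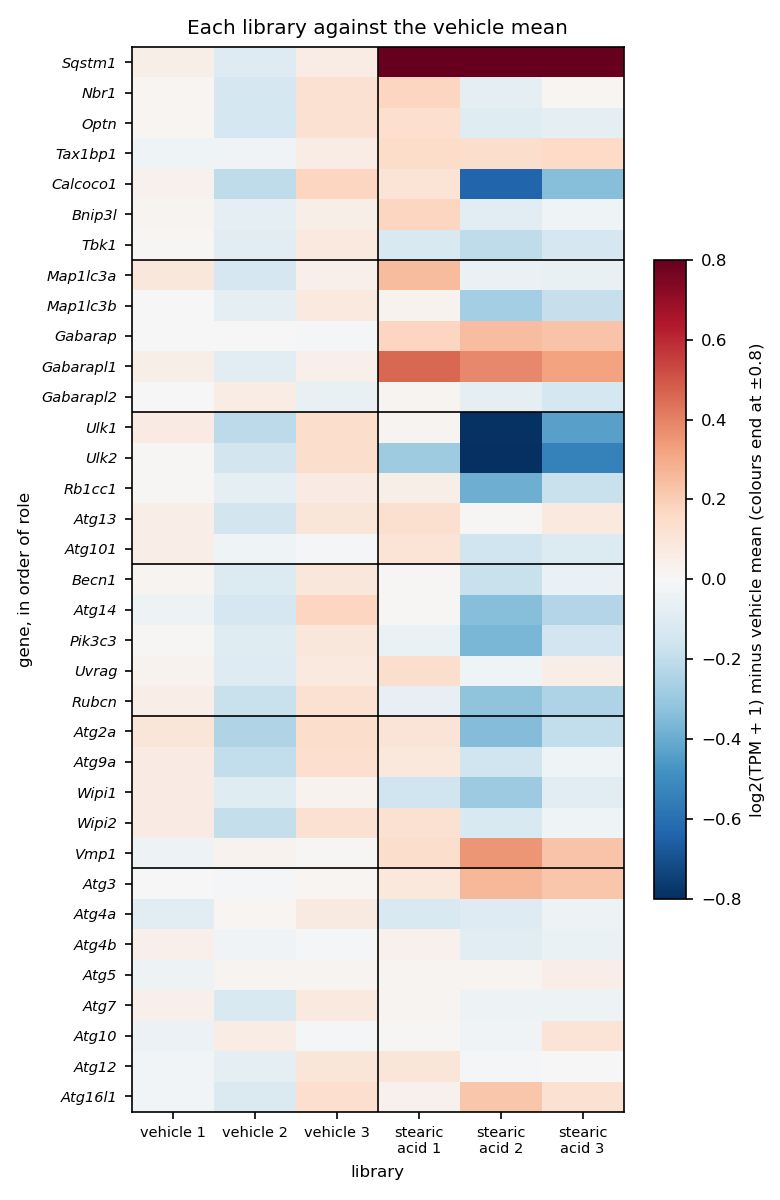
Colour map of log2(TPM + 1) minus the vehicle mean for each of the 35 genes (rows, in order of role, lines between roles) in each of the 6 libraries (columns); red is higher, blue lower, and colours end at 0.8 in both directions, so that Sqstm1 with stearic acid and Ulk2 in stearic acid replicate 2 go past the scale. Stearic acid replicate 1 is near or above the vehicle mean in most rows where replicates 2 and 3 are below it.

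Exon length was known for 11258 of the tested genes (97.5%), which were put in 3 classes of nearly equal size. By this length, long and short members differed in their median. Of the 14 members in the longest class (4208 bases or more) none rose and 1 fell, where 9.17% and 10.9% of all genes of the class did. Of the 12 in the middle class 2 rose and none fell, where 14.4% and 11.5% of all genes did. Of the 9 in the shortest class (up to 2365 bases) 2 rose and none fell, where 15.6% and 12.9% of all genes did. The median log2 fold changes, from longest to shortest class, were -0.14, 0.01 and 0.03 for members and -0.052, -0.008 and -0.001 for all genes. The median deviation of long genes minus that of short genes was 0.033, -0.050 and 0.110 (log2) in vehicle replicates 1 to 3 and 0.035, -0.086 and -0.023 in stearic acid replicates 1 to 3, and the groups overlapped in it. The part of length in the results was not tested.

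The rest of the pathway was followed in 4 lists of 65 other genes, all of which were tested. Of these, 10 rose, 2 fell and 53 did not pass, so that 18.5% were called, against 24.7% of all genes. By list, the share called was 13.3% for other core genes and 23.5% for other receptors and adaptors. It was 14.3% for the fusion list and 21.1% for the control list. Without the filter on low values the calls of Atg9b, Akt1s1, Rraga and Rragd held and the other 8 were lost. The list medians lay between -0.08 and 0.04.

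Among 15 other core genes, Atg9b and Tmem41b rose and 13 did not pass. Atg9b, the paralogue of Atg9a, rose from a low level, 1.40, 1.22 and 1.46 TPM to 2.34, 3.72 and 2.92 TPM (log2 0.75, limma adjusted p = 0.0078). At this low level the value depended on the pseudocount and unit, with 1.06 for a pseudocount of 0.1, 0.33 for 5 and 0.48 for RPKM. With vehicle replicate 2 left out it missed the threshold (limma adjusted p = 0.055). Tmem41b, a lipid scramblase of the endoplasmic reticulum that works with VMP1, was at 24.1, 26.2 and 25.8 TPM against 29.5, 31.6 and 31.3 TPM (log2 0.27, limma adjusted p = 0.027). Its call survived leaving out stearic acid replicate 1 and no other library.

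Among 17 other receptors and adaptors, 3 rose and 1 fell. Phb2, an inner mitochondrial membrane protein and mitophagy receptor, was at 100.9, 94.9 and 96.3 TPM in vehicle and at 114.0, 143.8 and 131.1 TPM with stearic acid (log2 0.40, limma adjusted p = 0.016). Bnip3, the paralogue of Bnip3l and a mitochondrial receptor, was at 41.4, 44.2 and 40.8 TPM against 46.3, 65.7 and 57.0 TPM (log2 0.40, limma adjusted p = 0.037). Fundc1, a receptor on the outer mitochondrial membrane, fell from 34.0, 35.1 and 36.0 TPM to 30.3, 24.8 and 28.6 TPM (log2 -0.32, limma adjusted p = 0.027). The remaining riser was Nufip1 (log2 0.31), a receptor for ribosomes. Leaving out vehicle replicate 2 or 3 or stearic acid replicate 3 ended the call of Phb2 (limma adjusted p up to 0.071). The calls of Bnip3, Fundc1 and Nufip1 survived leaving out stearic acid replicate 1 and no other library (limma adjusted p up to 0.14). Keap1, the partner of p62, was at 48.2, 41.7 and 47.1 TPM in vehicle and at 51.9, 45.0 and 46.6 TPM with stearic acid, and its groups overlapped.

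In the fusion list of 14 genes, Vps18, a subunit of the tethering complex HOPS, rose (log2 0.26, limma adjusted p = 0.032). Stx17, the SNARE protein of the autophagosome, fell from 16.9, 15.8 and 18.6 TPM to 14.8, 11.5 and 13.0 TPM (log2 -0.36, limma adjusted p = 0.034). Here too both calls survived leaving out stearic acid replicate 1 and no other library (limma adjusted p up to 0.13). Of the genes of the main lysosomal membrane proteins, Lamp1 overlapped between the groups (log2 0.01, 95% interval -0.13 to 0.15). Lamp2 was lower in every stearic acid library, at 318.5, 327.4 and 348.7 TPM against 311.5, 260.9 and 278.1 TPM, and missed the threshold (log2 -0.23, 95% interval -0.41 to -0.05, limma adjusted p = 0.065). It passed with quantile normalization (limma adjusted p = 0.043) and without stearic acid replicate 1 (limma adjusted p = 0.0051).

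Among 19 genes of the mTORC1, AMPK and TFEB control of autophagy, 4 rose and none fell, although Ddit4 lay close to the threshold. Rragd, a GTPase that recruits mTORC1 to the lysosome, was at 7.28, 6.58 and 6.72 TPM in vehicle and at 12.4, 11.6 and 10.0 TPM with stearic acid (log2 0.65, limma adjusted p = 0.0039). Akt1s1, which encodes PRAS40, an inhibitor within mTORC1, was at 17.1, 14.1 and 14.6 TPM against 24.4, 24.5 and 22.3 TPM (log2 0.61, limma adjusted p = 0.0042). The partner GTPase gene Rraga rose by log2 0.37, and so did Tfeb, the transcription factor of lysosome and autophagy genes, by log2 0.37. Rragd, Akt1s1 and Rraga passed whichever library was left out. The call of Tfeb ended without vehicle replicate 2 or 3, or without the third stearic acid library (limma adjusted p up to 0.089). Ddit4, which encodes the mTORC1 inhibitor REDD1, was at 8.11, 6.5 and 8.45 TPM in vehicle and at 6.83, 4.03 and 4.79 TPM with stearic acid (log2 -0.50, 95% interval -0.87 to -0.13, limma adjusted p = 0.051). It passed as lower with the filter at 5 TPM, with a pseudocount of 5, and after median-of-ratios or quantile scaling (limma adjusted p 0.037 to 0.049). Without stearic acid replicate 1, Ddit4, Deptor, Fnip1, Sesn2 and Foxo3 passed as lower. In that fit 16 of the 65 other genes passed as lower and 11 as higher. Calls over all genes also varied with the library left out, so these falls are not read as particular to this list.

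**Figure D4:**
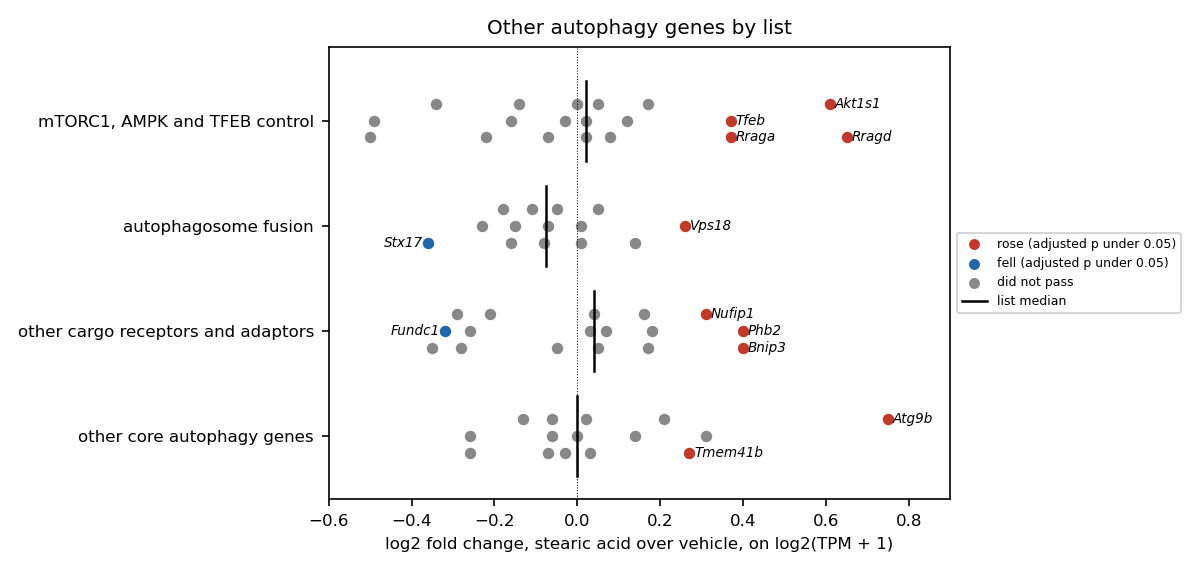
Log2 fold change (stearic acid over vehicle, log2(TPM + 1) scale) of 65 other autophagy genes in 4 lists; each point is a gene, red rose, blue fell, grey did not pass, and a black bar marks the list median. The 12 called genes are named, and with a pseudocount of 1 the points farthest right are Atg9b (0.75), Rragd (0.65) and Akt1s1 (0.61).

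The libraries carried the markers of macrophages and little of other cells. All 8 macrophage markers were tested, and 1 rose and 5 fell, where 12.8% and 11.9% of all genes did. The share called was 75.0%, against 24.7% of all genes. Their median log2 fold change was -0.46, against -0.03 for all genes. Their summed level was 32909 to 33823 TPM in vehicle and 23256 to 28903 TPM with stearic acid. Most of that sum was Lyz2, with means of 26282 TPM in vehicle and 19818 TPM with stearic acid. Of 9 neutrophil markers 1 was tested and rose, with a sum of 2.5 to 4.75 TPM against 6.40 to 7.22 TPM, and Retnlg was listed at 0 in every library. Most of this sum was the tested gene, S100a8, with means of 3.33 and 6.41 TPM. S100a9 averaged 0.295 TPM in vehicle and 0.145 TPM with stearic acid. Of 8 lymphoid markers 1 was tested and fell (sum 2.94 to 3.26 against 1.69 to 2.05 TPM), with Cd3e, Cd3g and Nkg7 listed at 0. No marker of dendritic, stromal and endothelial, or erythroid and mast cells reached the filter; their sums were at most 1.75, 4.22 and 0.209 TPM in any library. The part of these markers in the results was not tested. The value of 1 read gave depths of 58100000 to 80800000 reads or read pairs per library (which of these was not settled), and 1 TPM stood for 19.1 to 27.7 of them per kilobase.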

How the data were processed

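Expression was measured by RNA sequencing of polyadenylated RNA (stranded Illumina TruSeq libraries, per the labels' protocols) in 6 libraries, 3 per group. The authors deposited a TPM and an RPKM value per gene, per the file headers. The deposited RPKM values differ from TPM only by a constant per library. The submitters' processing notes name DRAGEN and the builds GRCm38 and mm10; the annotation, the counting rule and whether counting used strand were not given in the sources used here, so reads of overlapping genes cannot be told apart. Of 36333 gene numbers, 35337 matched the RefSeq table of GRCm38.p6, which gave coordinates and promoter windows; exon lengths and copies came from GENCODE M21.

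log2(TPM + 1) was tested with limma 3.58.1 (intensity-dependent prior, treatment only) in R 4.3.3 over genes averaging 1 TPM or more, with Benjamini-Hochberg adjustment over all 11551 and a threshold of 0.05. The pseudocount understates changes of low genes. The test was checked on simulated libraries. Depth came from RPKM steps in low single-exon genes, where 91.7% to 94.5% of 48 to 55 values per library came out as whole reads within 0.05.

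Members and lists were chosen with earlier results of these data known. All members are named, and from each other list the 2 called genes with the smallest p in each direction. Nufip1, Rraga, Tfeb, Keap1, Lamp1, Lamp2, Ddit4, Deptor, Fnip1, Sesn2, Foxo3, Ptrh2, Lyz2, S100a8 and S100a9 were named after their values were seen. Alternatives were other filters, pseudocounts, scalings, priors, a replicate block and leaving out each library; leaving out the libraries numbered 2 was chosen after seeing the data.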

Additional observations from a re-analysis of the deposited data

How the results depend on the processing

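Sqstm1 and Gabarapl1 kept their call and direction in all 16 alternatives, with limma adjusted p up to 0.022 and 0.042. Members that rose numbered 4 and that fell 1; leaving out 1 library gave 2 to 5 rises and 0 to 8 falls. Without a filter on low values there were 2 rises and 0 falls, without the libraries numbered 2 there were 2 rises, and with the replicate block 2 falls (Ulk1 added). For the other autophagy lists (10 rises and 2 falls), leaving out 1 library gave 3 to 11 rises and 0 to 16 falls. Without the filter they were 4 and 0, without the libraries numbered 2 they were 5 and 0, RPKM gave 16 rises, and median-of-ratios scaling, quantile normalization and the replicate block gave 5, 7 and 8 falls. Over all genes (1482 rises, 1374 falls) leaving out 1 library gave 384 to 2223 rises and 142 to 2787 falls, no filter gave 672 and 355, and leaving out the libraries numbered 2 gave 769 rises. The cause was not tested for any of these.

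Deviations from the group mean correlated at 0.070, 0.288 and 0.039 between same-numbered libraries. Between libraries of different numbers they correlated at -0.318 to 0.275, and the numbers were not taken as pairs. With the replicate block 4 members rose, as without it, and the falls it added in the other lists included Ddit4, Deptor and Foxo3.

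All sign changes were in genes that did not pass in the main analysis. RPKM turned Optn (0.03), Atg9a (0.01), Wipi2 (0.03), Atg4b (0.01) and Atg7 (0.02), and median-of-ratios scaling turned Optn (0.01), Wipi2 (0.01) and Atg7 (0.00). Leaving out 1 library gave both signs (values shown as 0.00 lay just under 0) in Nbr1 (-0.03 to 0.10), Optn (-0.08 to 0.06), Bnip3l (-0.06 to 0.07), Map1lc3a (-0.06 to 0.10), Atg13 (0.00 to 0.12), Uvrag (0.00 to 0.10), Atg9a (-0.13 to 0.03), Wipi2 (-0.11 to 0.05), Atg7 (-0.08 to 0.02), Atg10 (-0.01 to 0.06) and Atg12 (-0.01 to 0.08), and in the lysosomal gene Lamp1 (-0.01 to 0.03).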
